A study of Mus musculus with 6 samples.

Results

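The 10 genes described here are *Perp*, the simple keratins *Krt8*, *Krt18* and *Krt19*, and the epithelial junction and adhesion genes *Cdh1*, *Epcam*, *Dsp*, *Jup*, *Pkp2* and *Cldn1*, out of 39179 genes counted. They were chosen by symbol, with earlier results of the same contrast of genotypes known, so their differences between genotypes are given as a description and no test is offered in their support. RNA was sequenced from primary osteosarcomas of 6 mice on a mixed C57BL/6 x 129/Sv x FVB background. The 3 tumors labelled *Cd44*+/+ (No244, No316 and No368), like the 3 labelled *Cd44*-/- (No203, No279 and No364), came from mice that carried 1 mutant allele of the tumor suppressor *Nf2* (Nf2Δ2/+), and ages and treatments were not given. Every mouse thus shared the *Nf2* lesion, each library stood for 1 tumor, and the labels' extraction text speaks of cell lines where the sample labels and the study's methods speak of tumor tissue.

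Epithelial cells are held together by junctions that mesenchymal cells largely lack. In a desmosome, cadherins of the desmoglein and desmocollin kinds bind plakoglobin (*Jup*) and plakophilins (*Pkp2*), and desmoplakin (*Dsp*) ties this plaque to keratin filaments, which are built from pairs of a type II keratin such as *Krt8* and a type I keratin such as *Krt18* or *Krt19*. E-cadherin (*Cdh1*) forms adherens junctions, claudin 1 (*Cldn1*) is a strand protein of tight junctions, and *Epcam* is an adhesion molecule of many epithelia and of bile duct cells. *Perp* encodes a tetraspan membrane protein of the PMP22 family. It is a target of p53 and p63, takes part in apoptosis and is a component of desmosomes in stratified epithelia. Hepatocytes carry *Krt8* and *Krt18* as their keratin pair. Osteosarcoma is a mesenchymal tumor.

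Each tumor had between 18076388 and 26954142 counts. The mitochondrial share was 55.2% in No244 and lay between 5.94% and 12.5% elsewhere. The libraries No316 and No368 were nearly proportional, with 87.2% of genes inside the 95% binomial range of counting noise against 15.7% to 24.1% in the other 14 pairs of tumors, and they were averaged as 1 sample in every mean ± SD. *Cd44* itself was between 137.3 and 243.6 CPM in *Cd44*+/+ and between 15.7 and 61.8 in *Cd44*-/- tumors, where CPM denotes counts brought to a common total per library after TMM scaling. The label osteosarcoma was checked against 10 osteoblast markers. All 10 were counted in every tumor, but *Sp7*, *Ibsp*, *Alpl*, *Dmp1*, *Bglap* and *Bglap2* were low in the *Cd44*-/- tumors No279 and No364. There *Alpl* was at 7.16 and 19.6 CPM (481 to 718 elsewhere) and *Dmp1* at 0.363 and 0.523 (147 to 229). *Bglap* was at 4.79 and 6.80 (269 to 3481 elsewhere) and *Spp1* at 1444 and 2233 (3146 to 6416). *Col1a1*, *Runx2* and *Phex* were not low in No279 (11990.4, 68.3 and 15.9 CPM) but were lowest in No364 (764.9, 5.76 and 1.52). *Sp7*, the osteoblast transcription factor, was at 192 to 333 CPM in No244, No316, No368 and No203, at 3.96 in No279 and at 0.314 in No364. *Ibsp* (bone sialoprotein) was at 640 to 4820 CPM in the first 4 of these tumors, at 3.27 in No279 and at 2.25 in No364. In No364 the 15 hepatocyte markers summed to 138395.8 CPM, against 52.9 to 186.0 in the other tumors. Fold changes and profiles of the members, and the medians given for lists, are therefore also given without No364. In bulk tissue, fewer cells of a type and less RNA per cell cannot be told apart.

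Sequences upstream of the start of transcription are shown for 3 of these genes, since the study considers that cleaved intracellular CD44 can act on promoters. The 3 were chosen because *Dsp* and *Cldn1* were both high in No364 and No279 and *Epcam* was low in every *Cd44*+/+ tumor. *Cldn1* was, however, as high in the *Cd44*+/+ tumor No244 (9.58 CPM) as in No279 (9.08). *Krt8* and *Krt18* were also high in No364 and No279 and low in every *Cd44*+/+ tumor, but their windows are not printed. The choice is thus not the only one that these levels allow. RefSeq starts on GRCm38.p6 were found for 6 of the 10 genes (*Cldn1*, *Dsp*, *Epcam*, *Jup*, *Krt18* and *Krt8*) and not for *Perp*, *Krt19*, *Cdh1* and *Pkp2*. Each sequence is the 250 bases before the start, 5′ to 3′ on the strand of the gene, with capitals marking the CD44 intracellular domain response element CCTGCG or its reverse complement CGCAGG, and the E-box CAGGTG or its reverse complement CACCTG, which repressors of the Snail and Zeb families are known to bind.
Dsp, chr13:38151044-38151293, plus strand: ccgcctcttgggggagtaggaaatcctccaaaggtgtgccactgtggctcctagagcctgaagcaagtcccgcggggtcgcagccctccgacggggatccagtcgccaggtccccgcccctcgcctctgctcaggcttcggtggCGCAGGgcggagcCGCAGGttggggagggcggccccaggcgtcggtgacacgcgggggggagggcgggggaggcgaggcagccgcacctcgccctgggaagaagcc
Cldn1, chr16:26371840-26372089, minus strand: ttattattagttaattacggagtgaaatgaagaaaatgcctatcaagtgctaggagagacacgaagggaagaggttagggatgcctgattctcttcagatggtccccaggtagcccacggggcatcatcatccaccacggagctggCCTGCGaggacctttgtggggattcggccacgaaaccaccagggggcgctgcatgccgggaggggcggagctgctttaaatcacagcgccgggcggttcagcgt
Epcam, chr17:87635729-87635978, plus strand: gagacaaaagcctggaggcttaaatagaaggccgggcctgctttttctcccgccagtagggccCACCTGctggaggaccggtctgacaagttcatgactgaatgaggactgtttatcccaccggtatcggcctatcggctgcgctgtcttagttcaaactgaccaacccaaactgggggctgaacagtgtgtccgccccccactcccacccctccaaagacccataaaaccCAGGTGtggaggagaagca

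On either strand, CCTGCG stood in 2 of the 6 windows (*Dsp*, at 106 and 93 bases before the start, and *Cldn1*, at 104 bases), and in 14.1% of all 32851 windows of this length. Those 2 are among the windows printed above, so the printed windows overstate how common CCTGCG was in the 6. The E-box stood in 3 of the 6 (*Epcam*, *Krt8* and *Krt18*), and in 17.2% of all windows. The phorbol ester response element TGACTCA was found in 0 of the 6 and in 4.5% of all windows. These matches describe the letters of the windows and say nothing of binding.

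*Perp* (ENSMUSG00000019851) occupies 18845020 to 18857073 of chromosome 10 (GRCm38, plus strand) free of overlap with another annotated gene. *Perp* counts were 15 (No244), 6 (No316) and 4 (No368) with *Cd44* intact, and 48 (No203), 67 (No279) and 1911 (No364) without it. Scaled to CPM, the former stood at 1.26, 0.209 and 0.168 and the latter at 1.90, 2.21 and 100.01. Every *Cd44*-/- tumor lay above every *Cd44*+/+ tumor, but No364 was 45.2-fold above the next tumor. The order of the 3 middle tumors was not settled by the counts. The exact Poisson intervals (95%, counting error only) ran from 0.705 to 2.08 CPM in No244, from 1.40 to 2.52 in No203 and from 1.71 to 2.81 in No279, and those of No316 and No368 also overlapped.

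The keratin pair showed the widest range. *Krt8* (chromosome 15, 101996698 to 102004482, minus strand) was at 0.924, 0.174 and 0.210 CPM in No244, No316 and No368, against 1.03, 5.15 and 963 in No203, No279 and No364. An annotated gene on the other strand, *Gm36026*, overlaps *Krt8*, and the strand setting of the counting was not stated. *Krt18* (chromosome 15, 102028180 to 102032027, plus strand) starts 23698 bases from the start of *Krt8* and is transcribed away from it. It was at 0.672, 0.104 and 0.336 CPM in No244, No316 and No368, against 1.07, 28.5 and 959 in No203, No279 and No364. For both keratins No364 was the highest tumor, No279 was the next, and each *Cd44*-/- tumor lay above each *Cd44*+/+ tumor. The exact Poisson intervals of No203 and No244 overlapped for both, at 0.673 to 1.51 and 0.461 to 1.65 CPM for *Krt8* and at 0.706 to 1.56 and 0.290 to 1.32 for *Krt18*.

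The proportions of the pair differed between the tumors in which it was well counted. In No364 there were 18317 counts of *Krt18* and 18405 of *Krt8*, a ratio of 0.995, while in No279 there were 863 and 156, a ratio of 5.53. In No203 the ratio was 1.04 from 27 and 26 counts. *Krt19* (chromosome 11, 100140810 to 100148665, minus strand), the type I keratin of ducts and bile duct cells, had 39 counts in No364 (2.04 CPM), 2 counts in No203 and 0 counts in the other 4 tumors, where 3 counts would be 0.0990 to 0.252 CPM. The keratin excess of No279 was thus one of *Krt18* over *Krt8*, without *Krt19*.

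The desmosomal plaque genes did not share 1 pattern. *Dsp* (chromosome 13, 38151294 to 38198577, plus strand) had 3, 1 and 0 counts in No244, No316 and No368 and 0 counts in No203, but 136 in No279 and 1116 in No364 (4.49 and 58.4 CPM). An annotated gene on the other strand, *Gm10129*, overlaps *Dsp*. *Jup* (chromosome 11, 100368958 to 100397763, minus strand) was nearly level over the tumors. It was at 37.1, 35.0 and 35.6 CPM in No244, No316 and No368, against 30.9, 21.2 and 46.9 in No203, No279 and No364, so that the genotypes overlapped.

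*Pkp2* (chromosome 16, 16213318 to 16272712, plus strand) separated the *Cd44*+/+ tumors from each other. It was at 13.5 CPM in No244, 0.313 in No316 and 0.504 in No368, against 8.17, 4.85 and 84.3 in No203, No279 and No364. The level in the *Cd44*+/+ tumor No244 lay above those of 2 *Cd44*-/- tumors.

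Of the cell surface adhesion genes, *Epcam* differed most evenly between genotypes. *Epcam* (chromosome 17, 87635979 to 87651129, plus strand) was at 0.588, 0.0695 and 0.0420 CPM in No244, No316 and No368, from 7, 2 and 1 counts, against 2.50, 1.68 and 7.54 in No203, No279 and No364 (63, 51 and 144 counts). No364 exceeded the next tumor by 3.02-fold for *Epcam*, against 6.23-fold (*Pkp2*) to 187-fold (*Krt8*) for the other members but *Jup*. *Cdh1* (chromosome 8, 106603351 to 106670246, plus strand) was at 0.924, 2.26 and 2.27 CPM in No244, No316 and No368, against 0.674, 1.02 and 37.9 in No203, No279 and No364. Outside No364, the *Cd44*+/+ pair No316 and No368 held the highest *Cdh1* levels. *Cldn1* (chromosome 16, 26356642 to 26371841, minus strand) was at 9.58, 0.382 and 0.294 CPM in No244, No316 and No368, against 0.595, 9.08 and 144 in No203, No279 and No364. The *Cd44*+/+ tumor No244 and the *Cd44*-/- tumor No279 were alike in *Cldn1*, with overlapping Poisson intervals of 7.90 to 11.5 and 8.04 to 10.2 CPM.

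**Figure D1:**
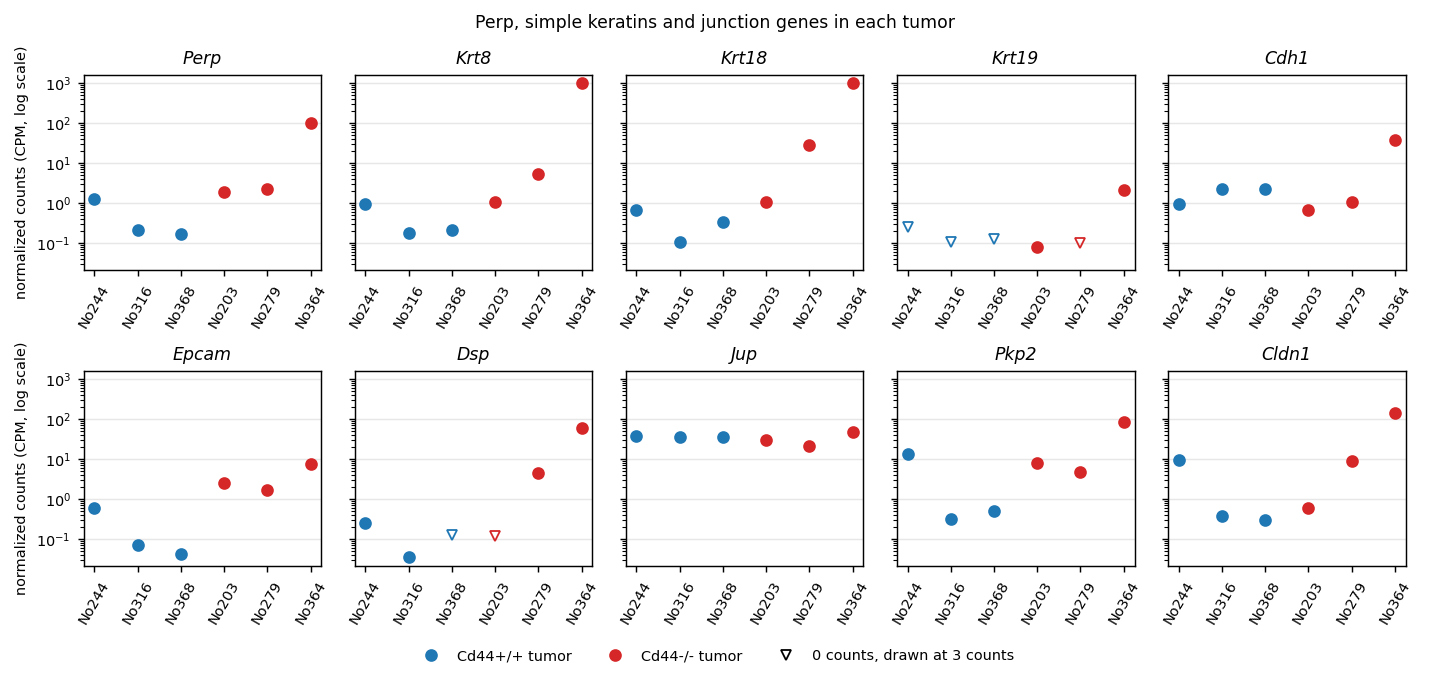
Normalized counts (CPM, log scale) of the 10 genes in each tumor, with *Cd44*+/+ tumors in blue and *Cd44*-/- tumors in red, and open triangles for 0 counts drawn at the level of 3 counts. No364 is the highest point in each of the 10 panels, while *Jup* stays between 21.2 and 46.9 CPM.

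Compared per kilobase of exon, the members ranked differently in No364 than elsewhere. In No364, CPM per kilobase was 667 for *Krt18*, 492 for *Krt8*, 51.2 for *Perp*, 29.8 for *Cldn1* and 15.7 for *Pkp2*, and from 1.10 (*Krt19*) to 8.28 (*Cdh1*) for the other members. In No244, No316, No368 and No203 the member highest per kilobase was *Jup*, at 4.80 to 5.76. In No279 it was *Krt18*, at 19.8, with *Jup* at 3.30 and *Perp* at 1.13.

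The members were next counted by tumor and by genotype. All 10 had their highest level in No364, and 8 of the 8 that passed the low-count filter did so, where 25.0% of all 16839 genes tested did. By at least 4 times the next tumor, No364 was highest for 8 of the 10 members (6 of the 8 that passed the filter), with 5.1% of all genes tested. Only *Epcam* and *Jup* among the 10 were not. Every *Cd44*-/- library lay above every *Cd44*+/+ library for 4 members, *Perp*, *Krt8*, *Krt18* and *Epcam*, where 9.49% of all genes tested were so with all 6 libraries. The number of members was also 4 without No364. That setting has fewer libraries to separate, and its share over all genes is not given. *Krt18* and *Epcam* reached the filter's level (0.449 CPM of the unscaled library) in the 3 *Cd44*-/- tumors alone, and *Krt19* and *Dsp* did not pass. The rule that chose the members used this contrast, so nothing is read from these shares.

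At an adjusted p (Benjamini-Hochberg) under 0.05, the quasi-likelihood test of edgeR called 0 members and 0 of all genes (0.0%), while at an unadjusted p under 0.05 it held 1810 genes. DESeq2, by its Wald test, called 2 of the 6 members to which it gave an adjusted p (*Epcam* and *Dsp*), beside 2.33% of all genes with one, but 0 members and 140 genes once No316 and No368 were summed to 1 library, an alternative added after the data had been seen. With the 6 libraries it gave no adjusted p to *Perp*, *Krt8*, *Krt18* and *Cdh1*. The log2 fold changes of *Cd44*-/- against *Cd44*+/+ tumors (with standard errors) were 9.85 (2.68) for *Krt18*, 9.61 (2.94) for *Krt8* and 6.08 (1.98) for *Perp*. They were 4.20 (1.23) for *Epcam*, 3.94 (2.14) for *Cldn1*, 2.85 (1.55) for *Cdh1*, 2.78 (1.73) for *Pkp2* and -0.12 (0.37) for *Jup*. These errors count the near-proportional No316 and No368 as 2 libraries and are narrower for it. With the pair summed, edgeR gave 9.59 (3.34) for *Krt18*, 9.23 (3.66) for *Krt8*, 5.65 (2.37) for *Perp* and 3.71 (1.45) for *Epcam*. The mean of *Perp* was 0.724 ± 0.758 CPM (SD, n = 2) for *Cd44*+/+, whereas for *Cd44*-/- it reached 34.7 ± 56.6 (SD, n = 3), so the spread between the *Cd44*-/- tumors exceeded the difference. The same held for *Krt8*, *Krt18*, *Krt19*, *Cdh1*, *Dsp*, *Pkp2* and *Cldn1*. For *Epcam* the means were 0.322 ± 0.376 CPM (SD, n = 2) for *Cd44*+/+ against 3.91 ± 3.17 (SD, n = 3), and their difference exceeded both SDs.

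Without No364, and with No316 and No368 still counted as 2 libraries, the fold changes of all 8 members that passed the filter were lower. That of *Krt18* was 5.39, of *Epcam* 3.31, of *Krt8* 2.90 and of *Perp* 1.99 on the log2 scale. Those of *Cldn1* (0.54) and *Pkp2* (0.47) were smaller than their standard errors of 1.80 and 1.60, and that of *Cdh1* turned to -1.09 (standard error 0.73). With No279 left out as well, an alternative chosen after the data had been seen, *Epcam* was at 3.57, *Perp* at 1.88, *Krt18* at 1.59 and *Krt8* at 1.31, *Cldn1* was at -2.47, and each rests on the single *Cd44*-/- tumor No203.

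**Figure D2:**
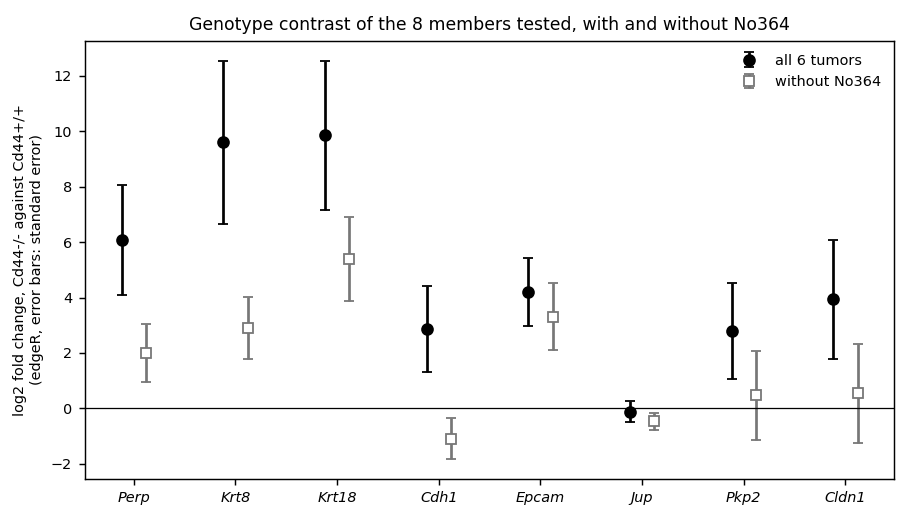
Log2 fold change of *Cd44*-/- against *Cd44*+/+ tumors from edgeR for the 8 genes that passed the low-count filter, with all 6 tumors (filled) and without No364 (open); bars are standard errors. *Perp* moves from 6.08 to 1.99 and *Cdh1* from 2.85 to -1.09, while *Epcam* moves from 4.20 to 3.31.

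Whether *Perp* followed the epithelial genes over the tumors was described by the root mean square difference between the log2 CPM profiles, after each gene had been centred on its own mean. A value of 1 means that the profiles typically differ by a factor of 2 in a tumor. Over the 6 tumors, *Pkp2* was the closest member (1.15), followed by *Epcam* (1.26), *Krt8* and *Cldn1* (both 1.37), *Krt19* (1.46), *Dsp* (1.64), *Krt18* (1.88) and *Cdh1* (1.99). *Jup* was the farthest at 2.75, and the median over all genes tested was 2.93. Apart from *Jup*, the other members fell among the nearest 10% of genes, with 0.517% (*Pkp2*) to 5.05% (*Cdh1*) of genes closer to *Perp*. With No316 and No368 averaged as 1 sample the order was *Pkp2* (1.21), *Krt19* (1.31), *Epcam* (1.38), *Krt8* (1.47), *Cldn1* (1.5), *Cdh1* (1.70), *Dsp* (1.80), *Krt18* (1.97) and *Jup* (2.66). *Krt19* and *Dsp*, which did not pass the filter, had few or no counts in most tumors, so their places depend on the prior count of 2. With a prior count of 0.5, *Dsp* was at 2.29 and *Krt19* at 1.32 over the 6 tumors. No correlation was computed over so few samples.

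Without No364, 3 of the 9 other members remained among the nearest 10%. *Epcam* differed from *Perp* by 0.53 (0.719% of genes closer), *Krt8* by 0.69 (1.57%) and *Pkp2* by 1.0 (7.26%), with a median of 1.5 over all genes tested. *Cdh1* (2.01), *Dsp* (1.76), *Krt18* (1.71) and *Jup* (1.57) lay beyond that median. *Perp* and *Dsp*, both desmosomal, parted in No203, where *Perp* had 48 counts and *Dsp* 0, and in No279, where they had 67 and 136.

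**Figure D3:**
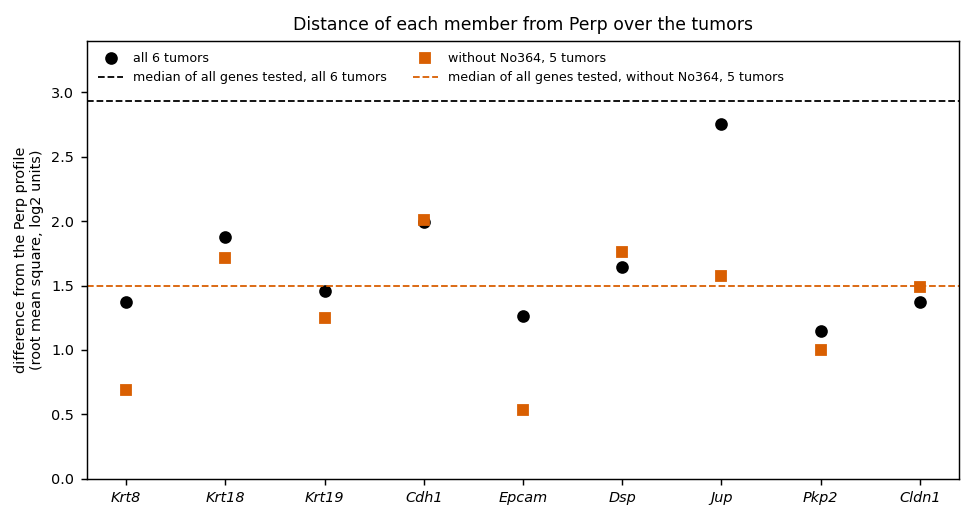
Root mean square difference (log2 units) of each of the other 9 genes from the *Perp* profile over all 6 tumors (circles) and without No364 (squares); dashed lines are the medians over all genes tested, 2.93 and 1.5. *Jup* is the farthest over 6 tumors (2.75), and *Epcam* is the closest without No364 (0.53).

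Outside the members, the 10 genes with profiles nearest to *Perp* over the 6 tumors included *Dgat2* (0.30), *Slc4a4* (0.38), *Klf15* (0.51), *Sema4g* (0.54), *Adcy1*, *Akr1c12* and *Gm12744* (each 0.55), *Prss8* (0.56) and *Cyp7b1* (0.57). *Dgat2* makes triglycerides, *Cyp7b1* hydroxylates oxysterols and *Prss8* is an epithelial surface protease. *Dgat2* was at 1.85, 0.626 and 0.378 CPM in No244, No316 and No368, against 4.60, 5.32 and 266 in No203, No279 and No364. No keratin or junction gene was among these 10. Without No364, other genes took these places, led by *Car12* (0.11), *Akr1c13*, *Zfp462* (both 0.13) and *Tfec* (0.14), and with *Ctsk* (0.21), the collagen-degrading protease of osteoclasts, and *Atp6v1b2* (0.22), a subunit of the proton pump. *Ctsk* was at 1862, 476 and 468 CPM in No244, No316 and No368, at 3124 and 2730.0 in No203 and No279, and at 202 in No364, the tumor where *Perp* was highest.

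Because No364 held hepatocyte transcripts, the level of each member in the other tumors was set beside that of the 15 hepatocyte markers, each as a percentage of its own level in No364, a description chosen after the counts had been seen. In No244, No316, No368 and No203 the markers stood at 0.0141% to 0.326% of No364, with medians of 0.0850%, 0.0353%, 0.0332% and 0.0961%. In the same 4 tumors *Krt8* stood at 0.0960%, 0.0180%, 0.0218% and 0.107%, and *Krt18* at 0.0701%, 0.0109%, 0.0350% and 0.112%, none of them above the highest hepatocyte marker of that tumor. *Perp* lay above the highest marker in each of the 5 tumors, at 1.26%, 0.209% and 0.168% in No244, No316 and No368, and at 1.90% and 2.21% in No203 and No279. In No316 and No368 it rested on 6 and 4 counts, whose lower Poisson bounds (0.0765 and 0.0458 CPM) do not settle that order. In No279 the markers reached 0.111% at most, while *Krt8* stood at 0.535%, *Krt18* at 2.97% and *Dsp* at 7.69%. *Cdh1*, *Epcam*, *Jup*, *Pkp2* and *Cldn1* were also above the highest marker in all 5 tumors. Counting error leaves that order unsettled for *Epcam* in No368 (1 count) and for *Cldn1* in No368 and No203 (7 and 15 counts). The part that hepatocyte transcripts had in the levels of the members in No364 was not tested.

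**Figure D4:**
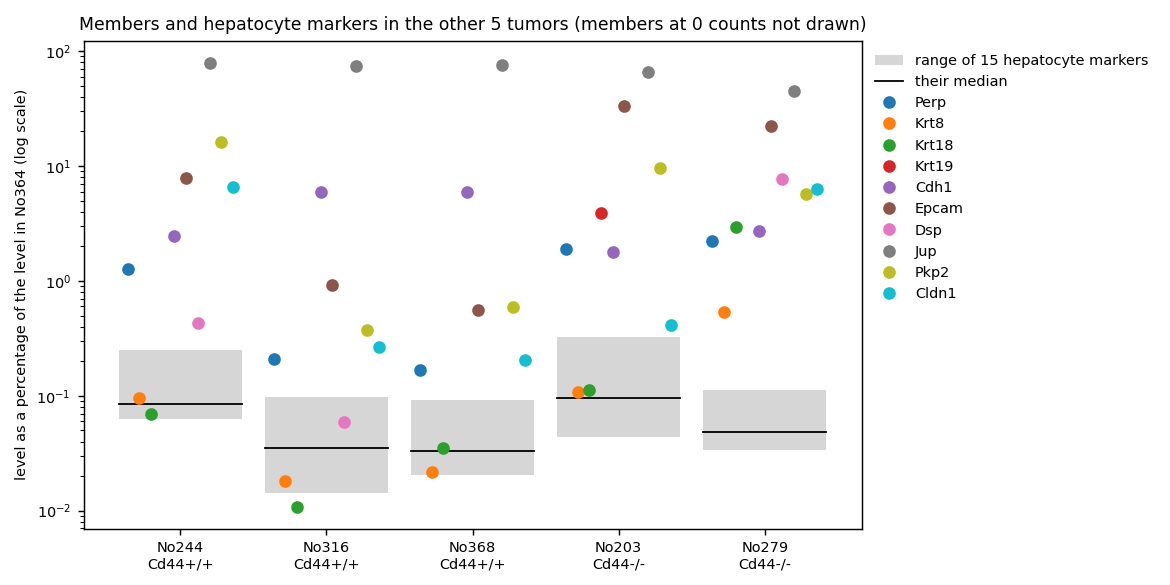
Level of each of the 10 genes in the other 5 tumors as a percentage of its level in No364 (log scale), with the grey band and black line giving the range and median of 15 hepatocyte markers; genes with 0 counts are not drawn. *Krt8* and *Krt18* lie at or below the top of the band in No244, No316, No368 and No203 and above it in No279, and *Perp* lies above it in all 5 tumors.

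Markers of other epithelia were compared as whole lists. All 7 bile duct markers had 3 or more counts in No364, where they summed to 106.9 CPM, against 3 to 5 of the 7 and sums of 1.84 to 18.3 CPM in the other tumors. *Cftr*, the chloride channel of ducts, was at 3.19 CPM in No364 and at 0 elsewhere. The 10 markers of squamous epithelium summed to 6.38 CPM in No364, the lowest of the 6 tumors, and to 8.72 to 33.5 elsewhere. *Krt5* had 12 counts in No364 and 0 in the others, and *Dsg3* had 0 in all 6. The part of these cell types in the members' levels was not tested.

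The other desmosome genes were then read from a list of 12. Only 3 passed the filter (*Pkp4*, *Ppl* and *Evpl*), and edgeR called 0 of them. The cadherins to which the plaque is anchored were counted almost solely in No364. *Dsg2* was at 215 CPM there and at 0.126 to 1.68 in the other tumors, and *Dsc2* was at 112 and at 0.0348 to 0.252. *Dsg1a* and *Dsg1b*, near-identical copies whose reads may be shared, had 118 and 121 counts in No364 and at most 2 elsewhere. In No279 the plaque genes *Ppl* (24.6 CPM), *Dsp* (4.49), *Pkp1* (4.62) and *Pkp3* (3.10) were present while *Dsg2* and *Dsc2* had 8 and 3 counts. *Ppl*, a plaque protein of the plakin family, was highest in No364 (45.0 CPM), had no counts in No203 and was at 0.139 to 1.76 CPM in *Cd44*+/+ tumors. *Pkp3* was also higher in No364 (6.75 CPM) than in No279, while *Pkp1* was lower there (1.36). *Pkp1* and *Pkp3* were named after their values had been seen.

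Of the 15 other keratins, 3 passed the filter and 0 were called. *Krt20*, of simple gastrointestinal epithelium, was at 28.4 CPM in No364 and had at most 1 count elsewhere, and *Krt23* was at 9.84 CPM there. *Krt7*, a keratin of ducts, was at 1.01, 0.104 and 0.126 CPM in No244, No316 and No368, against 0.793, 2.28 and 5.34 in No203, No279 and No364. *Krt6a* and *Krt6b* had 0 counts in all tumors.

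The other adherens junction genes were mixed. Of 12, 11 passed the filter, 0 were called, and 5 had a log2 fold change above 0 (45.5%, against 55.1% of all genes tested). Their median was -0.14 and turned to 0.08 without No364, and that of all genes was 0.11 and 0.05. *Cdh2* (N-cadherin) was at 224, 182 and 181 CPM in No244, No316 and No368, against 186, 7.92 and 138.7 in No203, No279 and No364. No279 was thus the lowest in *Cdh2*. No364 was the highest tumor for 3 of the 11, as it was for 25.0% of all genes tested. The 3 were *Nectin1* (53.9 CPM, with 2.50 to 17.3 elsewhere), *Nectin2* (82.6, with 16.7 to 28.4) and *Nectin3* (98.5, with 15.7 to 57.6), named after their values had been seen. *Cdh11*, the cadherin of osteoblasts, was at 355 CPM in No279 and at 25.0 in No364, while the catenins *Ctnnb1* and *Ctnna1* ranged from 344 to 787 and from 104 to 241 CPM over all tumors.

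Of the 18 other tight junction genes, 8 passed the filter and 0 were called. Of these 8, 6 were highest in No364, against 25.0% of all genes tested. *Cldn2*, of leaky epithelia and liver, was at 166 CPM in No364 and at 0.0348 to 0.252 elsewhere. *Cldn3* (104 CPM in No364) and *Ocln* (27.3) followed it, with at most 0.168 and 0.495 CPM in the other tumors, and were named after their values had been seen. *F11r* and *Cldn12* were at 125 and 79.9 CPM in No364 and at 10.7 to 25.0 and 9.16 to 38.3 elsewhere. *Tjp1*, the ZO-1 scaffold, was at 22.5 to 87.2 CPM in all tumors. The median log2 fold change of the 8 was 1.04, and that of the list without No364 was 0.26, with 0.05 for all genes tested.

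The known regulators of *Perp* were also examined. *Trp63*, the p63 gene, was at 3.36, 20.7 and 21.3 CPM in No244, No316 and No368, against 3.01, 2.48 and 0.209 in No203, No279 and No364. All *Cd44*-/- libraries were thus below all *Cd44*+/+ libraries, which held for 9.57% of all genes tested, and the tumor highest in *Perp* was the lowest in *Trp63*. *Trp53* was at 11.8, 30.7 and 29.1 CPM in No244, No316 and No368, against 47.2, 18.8 and 37.6 in No203, No279 and No364. Of a list of *Trp53* and 17 of its target genes, all 18 passed the filter, 0 were called by edgeR, and 8 had a log2 fold change above 0 (44.4%) with a median of -0.02, or of -0.30 without No364. *Cdkn1a* was at 112, 251 and 253 CPM in No244, No316 and No368, against 150, 46.5 and 103 in No203, No279 and No364. *Phlda3* was at 207 to 249 CPM in *Cd44*+/+ and at 20.6 to 146 in *Cd44*-/- tumors. All *Cd44*-/- libraries lay above all *Cd44*+/+ libraries for 1 of the 18, *Btg2*, where 9.49% of all genes tested were so. They lay below for 2 of the 18, *Phlda3* and *Sesn1*. *Btg2* was at 10.3, 10.98 and 12.6 CPM in No244, No316 and No368, against 30.5, 22.7 and 146 in No203, No279 and No364. *Btg2* and *Sesn1* were named after their values had been seen. *Trp53inp1* shared with *Perp* a high level in No364 (383 CPM, with 28.3 to 80.6 elsewhere), while *Ccng1* was highest in No244 (213).

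The other genes of the PMP22 family were next. All 5 passed the filter and 0 were called, and 1 of the 5 had a log2 fold change above 0 (median -0.26). Without No364 it was 4 of the 5, with a median of 0.17. *Pmp22* was at 65.5 to 87.4 CPM in 5 tumors and at 11.1 in No364, *Emp1* was at 63.5 in No364 and at 90.1 to 519.5 elsewhere, and *Emp3* and *Tmem47* were also lowest in No364. *Emp2* was at 145 CPM in No364 and at 57.2 to 84.1 elsewhere.

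Epithelial regulators and surface proteases were listed apart from the junction genes. Of 17, 10 passed the filter and 0 were called, and the median log2 fold change of these 10 was 0.67. Without No364, 11 passed the filter, and the median of those 11 was -0.59. *Spint2*, a protease inhibitor, was at 7.56, 0.452 and 0.462 CPM in No244, No316 and No368, against 13.3, 8.72 and 154 in No203, No279 and No364. *Prss8* was at 3.19, 0.695 and 0.252, and at 2.10, 2.67 and 96.1 in the same order. The epithelial splicing factor *Esrp2* was at 70.9 CPM in No364 and at 4.29 to 30.3 elsewhere. *Grhl2* and *Esrp1*, drivers of epithelial identity, had at most 3 counts in any tumor, and *Klf5* had 287 counts in No279 and at most 12 elsewhere. These 3 were named after their values had been seen.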

How the data were processed

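The 6 libraries, 1 per tumor, were analysed. By the study's methods, stranded mRNA libraries were read from 1 end, and per the labels HISAT2 2.0.2 and featureCounts of Subread 2.0.0 were used with GRCm38. The authors deposited raw counts per Ensembl gene, without normalization. How the counting treated strand and reads matching several genes is not given in the sources used here. Symbols, positions and exon lengths came from GENCODE M21 on GRCm38 (symbols for 37607 of 39179 genes), and upstream windows from RefSeq (GRCm38.p6). No column was unused.

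Genotype was fitted on all 6 libraries with edgeR 4.0.16 in R 4.3.3 (TMM, filterByExpr, quasi-likelihood F test). Standard errors were obtained by dividing each log2 fold change by the root of its F. Alternatives were other scalings, no filter, mitochondrial genes left out, No316 and No368 summed (also under DESeq2), limma-voom (limma 3.58.1), DESeq2 1.42.0, a prior count of 0.5 and leaving out tumors. Profiles used log2 CPM with a prior count of 2. Whether each library is a separate tumor rests on mouse numbers in the labels.

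Members and lists were chosen with earlier results of these data known. Genes named are the members, *Cd44*, the 10 nearest to *Perp* in profile, up to 4 genes with the highest mean level in each list, list genes at 0 in every tumor, and those marked as chosen after their values were seen, which also holds for marker genes and for single genes given in ranges. Some genes that this rule would name are not reported here. Intervals and floors (3 counts) cover counting error only.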

Additional observations from a re-analysis of the deposited data

How the results depend on the processing

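The number of genes and of members called stayed at 0 under each alternative but the Wald test of DESeq2, which called 419 genes and 2 members, and 140 genes and 0 members with No316 and No368 summed. Members with every *Cd44*-/- library above every *Cd44*+/+ library numbered 4 to 6 (6 without No244), and members highest in No364 by at least 4 times numbered 8 or 9 (9 without No203), under all alternatives that could give them. The shares over all genes tested are not given for these alternatives. The number of members among the 10% of genes nearest to *Perp* lay between 3 (without No364) and 8 when 1 tumor was left out, was 3 with No279 and No364 left out, and was 8 otherwise. Summing under DESeq2 and leaving out both tumors were alternatives added after the data had been seen. Log2 fold changes turned for *Cdh1* (-1.09 to 3.39 over the fits without 1 tumor, and -1.44 without No279 and No364), *Jup* (-0.46 to 0.12) and *Cldn1* (-2.47 without No279 and No364). A further 108 recomputed fold changes kept their direction and side of the threshold, 7 from DESeq2 kept their direction but had no adjusted p, and *Epcam* passed it with DESeq2 (adjusted p = 0.02), where its adjusted p under the other alternatives ran from 0.172 to 0.818. Without No244, the *Cd44*+/+ tumor with *Pkp2* and *Cldn1*, the log2 fold changes were 6.28 for *Pkp2* and 7.20 for *Cldn1*. The biological coefficient of variation was 0.708. Counts of 1 to 15 in the *Cd44*+/+ tumors limit the fold changes of *Perp*, *Krt8*, *Krt18* and *Epcam*. The causes of these dependences were not tested. No paired analysis was possible because the tumors carry mouse numbers that the genotypes do not share.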

Other observations

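Of the mesenchymal genes, *Vim*, *S100a4* and *Zeb2* were lowest in No364, and *Vim*, *Fn1* and *S100a4* were highest in No279. *Vim*, the intermediate filament of mesenchymal cells, was at 3918 CPM in No279, the tumor with *Krt18* at 28.5, and at 359 in No364, with 703 to 1623 in the other tumors. *Fn1* was at 5431 CPM in No279 and at 397 to 1643 elsewhere, and *S100a4* was at 1050.5 in No279 and at 96.3 to 246 elsewhere. *Zeb2*, a repressor of *Cdh1*, was at 17.0 CPM in No364 and at 62.8 to 99.5 in the others. All 9 genes of the list passed the filter and 0 were called by edgeR, with a median log2 fold change of 0.49, and of 0.99 without No364.

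Single squamous genes were counted in single tumors. *Krt14* had 107 counts in the *Cd44*-/- tumor No203 and at most 7 in the others, without counts of its partner *Krt5* there. *Lor*, of the cornified envelope, had 82 and 62 counts in No316 and No368 and at most 4 elsewhere. The 5 endothelial markers summed to 73.0 CPM in No364 and to 189.1 to 347 in the other tumors, and the 6 macrophage markers to 226 CPM in No364 and 330.3 to 685 elsewhere. The macrophage markers were mixed. *Clec4f* of Kupffer cells was at 42.9 in No364, 3.49 in No203 and at most 0.168 in the other tumors. *Vsig4* (18.0 CPM) and *Timd4* (5.60) were also highest in No364, *Csf1r* (98.0) and *Cd68* (48.7) were lowest there, and *Adgre1* (12.8) was neither.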
